A study of Mus musculus with 12 samples.

Results

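The SLC1 and SLC36 amino acid transporters of mouse liver tumors were examined as a set of 7 genes, taken by name from the 24062 genes counted in every library. The set holds the glutamate transporters Slc1a1 and Slc1a2, the neutral amino acid exchanger Slc1a4 and the SLC36 family genes Slc36a1, Slc36a2 and Slc36a4. It also holds Slc6a9, a glycine transporter of another family that shares a substrate with the SLC36 proteins. The 7 genes were chosen by family and name, not by a threshold on their values. Polyadenylated RNA of 12 mice was sequenced as 1 library per mouse. The livers came from LAP-tTA/TRE-MYC mice on the FVB background, called MYC-ON, in which a liver promoter drives the activator of a MYC transgene. Doxycycline, which keeps the transgene silent, was withdrawn at birth, and the labels give an age of 45 days for males overexpressing MYC. The control livers were of mice 101, 102 and 103, and the livers of mice fed a diet without tryptophan (No-Trp) were of mice 105, 107 and 108. The xenografts were tumors of HCC53N, a single mouse liver cancer line that lacks p53 and overexpresses mutant NRAS and that the labels also mark as MYC-ON, grown subcutaneously in female hosts of the NOD SCID strain (NOD-SKID in the labels), which lack mature lymphocytes. Control xenografts were of mice 40, 41 and 43, and No-Trp xenografts of mice 35, 36 and 37. Every mouse spent 21 days on its diet. All livers shared the transgene and all xenografts the line and host, so each diet comparison was made within 1 model.

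Amino acid transporters set which amino acids a cell can take up, exchange or release. The SLC1 family holds sodium-driven transporters of glutamate and aspartate and sodium-dependent exchangers of small neutral amino acids. In liver, the glutamate transporter encoded by Slc1a2 is known from the hepatocytes around the central vein, which also make glutamine. The SLC36 proteins carry glycine, alanine and proline, mostly together with protons, at the cell surface and at the lysosome, and the protein of Slc36a4 is known to carry proline and tryptophan. Shortage of an amino acid activates the transcription factor ATF4, which induces several transporter genes. MYC is itself known to act on genes of amino acid uptake, through sites called E-boxes.

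Promoter windows from RefSeq on GRCm38.p6, reaching from 250 bases before to 50 bases after the annotated start, were found for 6 of the 7 genes, with 8 windows in all. They were searched on both strands for TGATGNAA, the core of the element bound by ATF4 with its partners, and for the E-box CACGTG, 2 motifs that share no overlapping match here. Each motif was present in 1 of the 6 genes. Among all 27025 genes with a window, 4.51% held the first motif and 8.09% the E-box. The 2 stretches with a match are shown from 100 bases before the start to the end of the last match, with the matches in capitals. The stretch of Slc1a4 is chr11:20332710-20332813 on the minus strand, where the core was read on the other strand and its first base lay at position -4 from the start. The stretch of Slc36a1 is chr11:55204240-55204342 on the plus strand, with E-boxes at -31 and -3.
Slc1a4: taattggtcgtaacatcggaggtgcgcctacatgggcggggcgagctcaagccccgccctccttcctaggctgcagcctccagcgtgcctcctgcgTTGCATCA
Slc36a1: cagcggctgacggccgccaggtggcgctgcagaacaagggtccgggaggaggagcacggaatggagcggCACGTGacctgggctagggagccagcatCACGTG
A match of letters describes the window and was not tested as a binding site.

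Between 14660963 and 26085349 reads per library were counted on genes (median 21659300), and the fitted spread between mice over all genes was 31.6% in the livers and 28.7% in the xenografts. Levels are given as CPM, the reads of a gene scaled to a library size that is the same for all 12 libraries after TMM scaling. Hepatocyte markers such as Alb were abundant in the livers, where the summed level of the 7 markers was 10299 to 39451 CPM in control mice and 49168 to 131792 CPM in No-Trp mice, and low in the xenografts, at 150 to 651 CPM. The 6 cholangiocyte markers summed to 2973 to 10765 CPM in the xenografts but 87.1 to 167 CPM in the livers. Most of the xenograft sum was Spp1, at 2332 to 9929 CPM, against 68.3 to 140 CPM in the livers. Krt19, Krt7 and Sox9 were also higher in the xenografts without overlap. Epcam (5.96 to 19.8 CPM in xenografts, 3.77 to 12.7 CPM in livers) and Cftr overlapped between the models. The xenografts thus did not carry the hepatocyte profile of the livers. Trp53 was counted at 17.5 to 23.0 CPM in the xenografts and 46.6 to 133 CPM in the livers, and these counts do not show which exons the reads came from. The libraries of livers 101 and 108 and of xenografts 41 and 43 carry a mark of resubmission, and the diet of xenograft 40 rests on its labels alone because its data are named in another pattern. Control liver 102 stood apart from the other control livers in having the most hepatocyte and the most erythroid marker reads. Control liver 101 differed more from 102 and 103 (274 and 240 times the variance of counting, chi-square per gene) than these did from each other (165 times). Of the reads of control liver 101, 36.1% were left out of the gene counts, against 28.6% and 25.2% in 102 and 103.

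**Figure D1:**
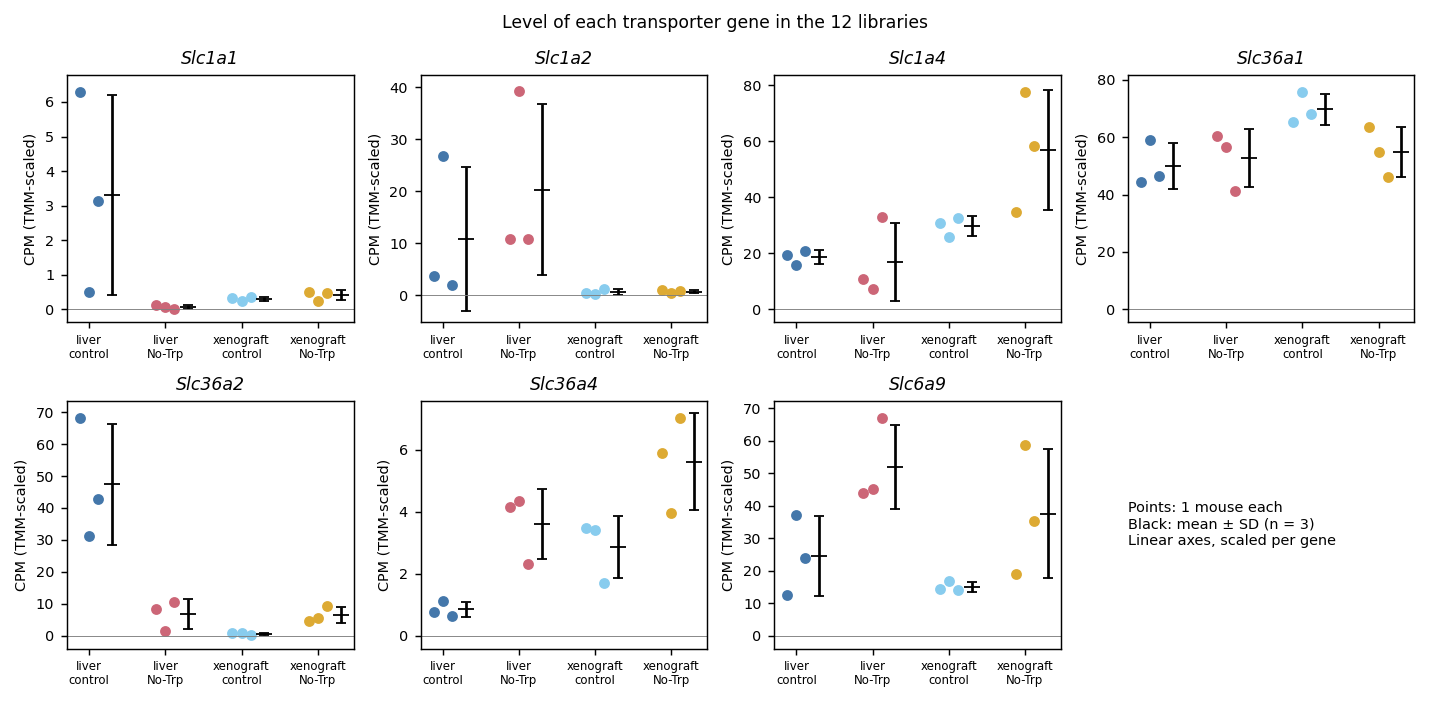
TMM-scaled CPM (linear axes from about 0, scaled per gene) of each of the 7 genes in the 4 groups, with 1 point per mouse and the mean ± SD of 3 mice in black. Slc36a2 fell from 31.1 to 68.2 CPM in control livers to 1.53 to 10.6 CPM in No-Trp livers, while in xenografts it was 0.147 to 0.759 CPM on the control and 4.43 to 9.35 CPM on the No-Trp diet.

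In the livers the diet without tryptophan went with a fall of Slc1a1 and Slc36a2 and a rise of Slc36a4. These 3 of the 7 genes (1 higher, 2 lower) were called by edgeR, which here means that the p-value, adjusted by Benjamini-Hochberg across the genes tested, was no more than 0.05 and the log2 fold change was 1 or more in either direction. Among all 14122 genes tested, 16.5% were called. Slc1a1 passed the low-count filter only through the control livers, where it was high, so its place in this count depends on the change itself. The median log2 fold change was 0.10 over the 7 genes and -0.0031 over all genes. In 4 of the 7 genes the mice of one diet were all above those of the other, against 48.7% of all genes tested. In the xenografts none of the 6 genes tested was called, against 0.36% of 14704 genes tested, or 53 genes, and 5 of the 6 had an unadjusted p under 0.05, as had 2483 genes in all. DESeq2 called 2 of the members there, Slc36a2 and Slc6a9, and 2.48% of the 15342 genes to which it gave an adjusted p. The levels of 5 of the 6 did not overlap between the diets, against 22.4% of all genes. The median log2 fold change of the 6 was 0.93, against -0.0045 over all genes. Slc36a2 passed the low-count filter there only through the No-Trp xenografts, where it was high. Control xenografts 40, 41 and 43 held 3, 19 and 12 of its reads, so its place in these values depends on the change itself. Library quality moved with the diet there, since 28.5% to 39.4% of reads were left out of the gene counts in control xenografts and 26.4% to 26.8% in No-Trp xenografts, without overlap, and its part in these results was not tested.

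Slc36a2 fell in the livers and was higher on the No-Trp diet in the xenografts, and the difference between these responses passed the test. It encodes a transporter of glycine, proline and alanine with high affinity, and it is known as a surface marker of brown and other fat cells besides its role in kidney and muscle. The gene lies on chromosome 11 (55158470 to 55185077, minus strand, GRCm38), 19.3 kb from Slc36a1. Control livers held 68.2, 31.1 and 42.9 CPM (mice 101, 102 and 103) and No-Trp livers 8.34, 1.53 and 10.6 CPM (105, 107 and 108). All 3 control livers were above all 3 No-Trp livers, and mouse 107 had the lowest level. The mean fell from 47.4 ± 18.9 to 6.83 ± 4.73 CPM (SD, n = 3 mice), a log2 fold change of -2.78 (SE 0.66, edgeR adjusted p = 0.0300), or 6.87-fold lower.

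In the xenografts the same gene was low on the control diet, at 0.147, 0.759 and 0.728 CPM (mice 40, 41 and 43), and reached 4.43, 5.57 and 9.35 CPM on the No-Trp diet (35, 36 and 37). The groups did not overlap, and mouse 37 was the highest. With 3 to 19 reads in the controls, the gene passed the low-count filter only through the No-Trp group. The log2 fold change was 3.54 (SE 0.60), or 11.6-fold higher, with an edgeR adjusted p of 0.0506, just past the threshold, and with DESeq2 the adjusted p was 2.40e-08, the lowest of the alternatives, which reached up to 0.161. The log2 fold change ranged from 3.09 without control xenograft 40 to 5.39 with resubmission as a covariate. Control xenografts 41 and 43 carry that mark and the No-Trp xenografts do not. The value of 5.39 therefore compares control xenograft 40 alone with the No-Trp group. The test of the difference between the models gave a log2 difference of 6.33 (SE 0.96, edgeR adjusted p = 0.00593) in the fit over all 12 libraries. Leaving out any single library kept this difference between 5.87 and 6.79 and called. Between the No-Trp groups of the models the log2 difference in Slc36a2 was -0.09 (xenograft against liver, SE 0.61, edgeR adjusted p = 0.903), with a mean of 6.45 ± 2.57 CPM in these xenografts.

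Between the diets, markers of fat cells moved with Slc36a2 in the xenografts. The 6 adipocyte markers summed to 14.1, 69.3 and 15.7 CPM in control xenografts 40, 41 and 43. In No-Trp xenografts 35, 36 and 37 they summed to 509, 394 and 820 CPM. Of the 6, 3 were called higher, against 0.36% of all genes called in the xenografts. Adipocyte markers and Slc36a2 were both highest in mouse 37. Mouse 36 had the lowest adipocyte sum of the No-Trp xenografts but more Slc36a2 than mouse 35 (5.57 against 4.43 CPM). Controls 41 and 43 held 0.759 and 0.728 CPM of Slc36a2 at sums of 69.3 and 15.7 CPM. The 6 skeletal muscle markers summed to 1.81 to 19.4 CPM in controls and 32.0 to 62.9 CPM without Trp, with 0 of the 6 called by edgeR. In bulk tissue, fewer cells of a type and less RNA per cell cannot be told apart, and the part of fat or muscle cells in the level of Slc36a2 was not tested. In the livers the adipocyte sum was 33.2 to 46.0 CPM in controls and 27.1 to 76.8 CPM without Trp, with overlap. The markers within this sum did not move together, since of the 3 tested in the livers 1 was called higher and 1 lower. At least 1 liver of each diet had a marker of the list at 0. The 8 erythroid markers summed to 70.5, 712 and 462 CPM in control livers 101, 102 and 103 and to 17.2 to 29.7 CPM in No-Trp livers. Of the 8, 7 were called lower, against 16.5% of all genes called in the livers in either direction. Slc36a2 was highest in mouse 101, the control liver with the lowest erythroid sum and the most reads left out of the gene counts. Between the diets, Slc36a2 and the erythroid sum were both lower without Trp, and the part of erythroid cells in the level of Slc36a2 was not tested.

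**Figure D2:**
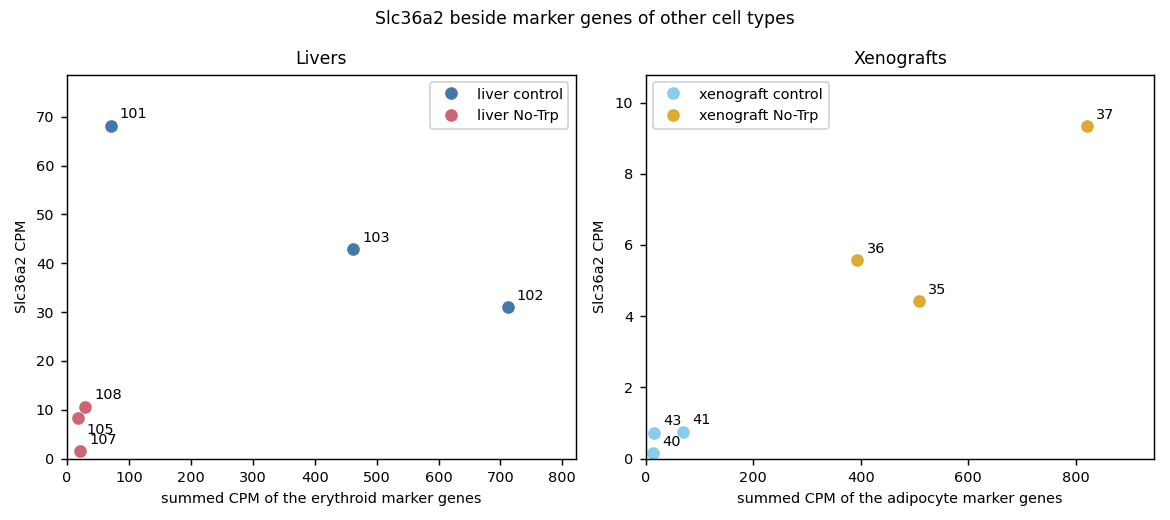
Slc36a2 CPM (y axis) against the summed CPM of 8 erythroid markers in the livers (left) and of 6 adipocyte markers in the xenografts (right), 1 point per mouse with its number. No-Trp xenografts lie at 394 to 820 CPM of adipocyte markers and 4.43 to 9.35 CPM of Slc36a2, and control liver 101 combines the highest Slc36a2 (68.2 CPM) with the lowest erythroid sum of the controls (70.5 CPM). The part of either cell type in the level of Slc36a2 was not tested.

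Slc36a1, the neighbour of Slc36a2, did not pass the test in either model. Its protein exports small neutral amino acids from lysosomes with protons and also takes them up in the gut. It is on chromosome 11 (55204350 to 55236330, plus strand). Livers held 44.3, 59.1 and 46.6 CPM on the control diet and 60.5, 56.6 and 41.2 CPM on the No-Trp diet, in the order of mice given above, and the groups overlapped. The log2 fold change was 0.10 (SE 0.20, edgeR adjusted p = 0.731). Xenografts held 68.0, 65.4 and 75.8 CPM on the control and 63.6, 54.8 and 46.1 CPM on the No-Trp diet. The No-Trp xenografts were all lower, but the log2 fold change of -0.37 (SE 0.16) did not pass (edgeR adjusted p = 0.277), nor did the difference between the models (-0.44, SE 0.26, edgeR adjusted p = 0.257).

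Slc36a4, whose protein carries tryptophan among its substrates, was higher on the No-Trp diet in the livers. It lies on chromosome 9 (15709738 to 15743361, plus strand). Control livers held 0.768, 1.13 and 0.641 CPM, and No-Trp livers 4.17, 4.35 and 2.31 CPM. The lowest No-Trp liver, mouse 108, was above the highest control, mouse 102. The mean rose from 0.845 ± 0.252 to 3.61 ± 1.13 CPM (SD, n = 3 mice), a log2 fold change of 2.13 (SE 0.41, edgeR adjusted p = 0.0199), or 4.36-fold. In the xenografts the levels were 1.71, 3.48 and 3.40 CPM on the control and 5.89, 3.95 and 7.02 CPM on the No-Trp diet. They did not overlap either, with a log2 fold change of 0.95 (SE 0.40) that did not pass (edgeR adjusted p = 0.277). The difference between the models was -1.14 (SE 0.58, edgeR adjusted p = 0.194), so the responses were not shown to differ.

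The calls of Slc36a2 and Slc36a4 in the livers depended on single mice. Without control liver 101, the log2 fold changes were -2.43 and 2.07 and the edgeR adjusted p-values 0.0785 and 0.0615, without control liver 103 -2.86 and 1.94 (0.0927 and 0.0884), and without No-Trp liver 105 -2.95 and 2.02 (0.0793 and 0.0612). Over all alternatives the adjusted p ranged from 6.91e-05 to 0.0927 for Slc36a2 and from 0.000108 to 0.0884 for Slc36a4. Over all genes, 294, 8 and 368 were called without these mice, in place of 2337.

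Slc1a1 fell in the livers on the No-Trp diet, to 3 reads in the 3 mice together. It encodes a high-affinity transporter of glutamate and aspartate that also takes up cysteine. The gene is on chromosome 19 (28835049 to 28913960, plus strand). Control livers 101, 102 and 103 held 131, 9 and 78 reads, or 6.29, 0.507 and 3.12 CPM, and No-Trp livers 105, 107 and 108 held 2, 1 and 0 reads, or 0.114, 0.0613 and 0 CPM. Mouse 102 was far below the other controls and still above every No-Trp liver. The ratio of the summed reads, scaled for library size, was 53.5, with a 95% interval of 18.1 to 261.6 that covers counting error only. The fitted log2 fold change was -5.55 (SE 1.17, edgeR adjusted p = 0.0236), and with 3 reads in one group its size depends on the prior count. Without No-Trp liver 105 it was -6.34 (edgeR adjusted p = 0.0649) and without 107 -5.55 (edgeR adjusted p = 0.0614), and without control liver 101 or 103 the gene was not tested because it fell below the low-count filter. With all 6 livers and no filter it was -5.55 (edgeR adjusted p = 0.0203). The adjusted p ranged from 4.33e-05 with DESeq2 to 0.0649 over the alternatives.

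In the xenografts Slc1a1 was at 0.342, 0.320 and 0.243 CPM on the control and 0.513, 0.236 and 0.465 CPM on the No-Trp diet, which overlapped. It was below the filter there, and without the filter its log2 fold change was 0.39 (SE 0.72, edgeR adjusted p = 0.834). The difference between the models was 5.98 (SE 1.30, edgeR adjusted p = 0.0147) and stayed called without each single library, between 5.12 and 6.78. Slc1a1 shares 2631 exon bases with 4430402I18Rik on the other strand, and the strand setting of the counting is not given in the sources used here. That gene held 79, 26 and 37 reads in control livers and 21, 19 and 17 in No-Trp livers, more than Slc1a1 in every No-Trp liver.

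Slc1a2, which encodes the glutamate transporter of pericentral hepatocytes and of astrocytes, differed between the diets in the livers by less than the spread within a group. It is on chromosome 2 (102658659 to 102790784, plus strand). Control livers held 3.70, 26.7 and 1.88 CPM and No-Trp livers 10.8, 39.3 and 10.8 CPM. Control liver 102 was above 2 of the No-Trp livers, and the log2 fold change was 0.96 (SE 1.01, edgeR adjusted p = 0.508). Livers 102 and 107, highest in Slc1a2 within their groups, were also highest in the hepatocyte marker sum, at 39451 and 131792 CPM, against 10299 to 13348 and 49168 to 61801 CPM in the others. The part of hepatocyte content in these levels was not tested. Without mouse 102 the log2 fold change was 2.88 (SE 0.72, edgeR adjusted p = 0.0273, the lowest of alternatives that reached up to 0.991). Xenografts held 1.22, 0.520 and 0.182 CPM on the control and 0.952, 0.405 and 0.719 CPM on the No-Trp diet, with overlap and a log2 fold change of 0.07 (SE 0.69, edgeR adjusted p = 0.974).

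Slc1a4 encodes an exchanger of alanine, serine, cysteine and threonine and is a known ATF4 target. It lies on chromosome 11 (20302180 to 20332713, minus strand), with the promoter stretch shown above. Control livers held 19.2, 15.8 and 20.9 CPM and No-Trp livers 10.8, 7.23 and 32.9 CPM. Mice 105 and 107 were below all controls and mouse 108 above all of them, which gave a log2 fold change of -0.12 (SE 0.53, edgeR adjusted p = 0.885). Xenografts held 32.5, 30.7 and 25.7 CPM on the control and 34.6, 77.5 and 58.1 CPM on the No-Trp diet. All No-Trp xenografts were above the controls, mouse 35 only slightly, and the log2 fold change of 0.91 (SE 0.27) did not pass (edgeR adjusted p = 0.167). The difference between the models was 1.06 (SE 0.65, edgeR adjusted p = 0.285), and without liver 108 it was 1.96 and passed (edgeR adjusted p = 0.0155, the lowest of alternatives that reached up to 0.488).

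Slc6a9 encodes the glycine transporter GLYT1, which supplies red cell precursors with glycine for heme and removes glycine from synapses. It is on chromosome 4 (117834506 to 117875198, plus strand). Control livers held 12.5, 37.0 and 23.9 CPM and No-Trp livers 43.9, 45.1 and 66.9 CPM. All No-Trp livers were above all controls. The mean of 3 mice was 24.5 ± 12.3 CPM (SD) in controls and 52.0 ± 12.9 CPM without Trp, with a log2 fold change of 1.11 (SE 0.39) that did not pass in edgeR (adjusted p = 0.0712). The erythroid marker sum was lower on the No-Trp diet, the opposite direction to the level of Slc6a9, while within the controls mouse 102 was highest and mouse 101 lowest in both. The part of erythroid cells in the level of Slc6a9 was not tested.

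In the xenografts Slc6a9 was at 14.0, 14.3 and 16.8 CPM on the control and 18.9, 58.5 and 35.1 CPM on the No-Trp diet. The groups did not overlap, and mouse 36 was the highest. The log2 fold change was 1.30 (SE 0.37, edgeR adjusted p = 0.165). The difference between the models was 0.21 (SE 0.58, edgeR adjusted p = 0.837). With DESeq2 the adjusted p was 0.0295 in the livers and 0.0123 in the xenografts, and both responses passed there. Without control liver 102 the log2 fold change in the livers was 1.51 and passed in edgeR (adjusted p = 0.0197). The adjusted p ranged from 0.0197 to 0.190 over the alternatives in the livers and from 0.0123 to 0.371 in the xenografts. Slc6a9 shares 1429 exon bases with Ccdc24 on the other strand, which held at most 6.52 CPM in any library, and 46 with B4galt2.

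**Figure D3:**
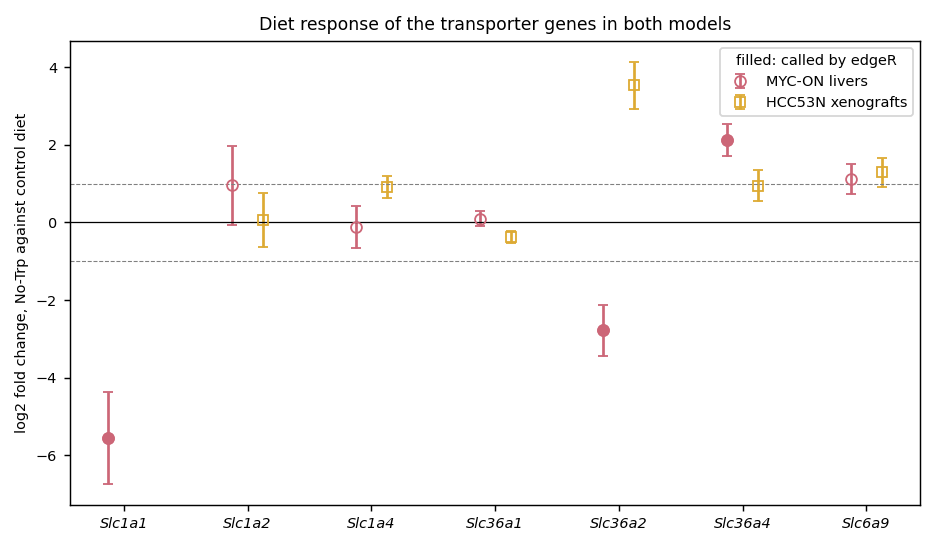
Log2 fold change of the No-Trp against the control diet (y axis) with its SE from edgeR for each gene in livers (circles) and xenografts (squares), filled where called, with dashed lines at the fold threshold. Slc36a2 lies at -2.78 in livers and 3.54 in xenografts, Slc6a9 at 1.11 and 1.30, and Slc1a1 has no xenograft value because it was below the filter.

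Across the models on the same diet, the difference in tissue, host, sex, site and driver cannot be told apart. The xenografts on the control diet differed from the livers in 4 of the 7 genes (1 higher, 3 lower), against 43.5% of 15472 genes. Slc36a2 was lower in the xenografts by a log2 difference of -6.43 (SE 0.78, edgeR adjusted p = 2.92e-05), Slc1a2 by -4.03 (SE 1.05, edgeR adjusted p = 0.00606) and Slc1a1 by -3.42 (SE 0.80, edgeR adjusted p = 0.00287), and Slc36a4 was higher by 1.76 (SE 0.43, edgeR adjusted p = 0.00356). On the No-Trp diet 2 of the 7 differed (1 higher, 1 lower), against 43.7% of all genes. These were Slc1a2, lower at -4.88 (SE 1.06, edgeR adjusted p = 0.00201), and Slc1a4, higher at 1.73 (SE 0.47, edgeR adjusted p = 0.00760). In the model difference of the diet response, 2 of the 7 genes, Slc1a1 and Slc36a2, were called, against 12.7% of all genes.

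Levels of different genes were compared as CPM per kb of exon length. The lengths cover every exon of a gene in GENCODE M21, while the authors took their mm10 annotation from Illumina iGenomes. The effect of this difference on the order and the shares below was not tested. In control livers Slc36a2 led at 14.6 ± 5.82 CPM per kb (SD, n = 3 mice), overlapping Slc36a1 at 8.89 ± 1.41. Slc6a9 (4.76 ± 2.39) and Slc1a4 (4.74 ± 0.666) followed, overlapping each other, and then Slc1a2 (0.819), Slc1a1 (0.401) and Slc36a4 (0.129), each overlapping its neighbour. In No-Trp livers Slc6a9 stood first at 10.1 ± 2.52 and Slc36a1 next at 9.38 ± 1.81, with overlap. Slc1a4 (4.33), Slc36a2 (2.10) and Slc1a2 (1.55) came next, each overlapping the one before, followed by Slc36a4 (0.552) and then Slc1a1 (0.00708), without overlap.

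In control xenografts Slc36a1 led at 12.4 ± 0.959 CPM per kb, above Slc1a4 (7.55), Slc6a9 (2.92) and Slc36a4 (0.438), with no overlap between these neighbours. Slc36a2 (0.167), Slc1a2 (0.0488) and Slc1a1 (0.0365) stood last, and each overlapped its neighbour. In No-Trp xenografts Slc1a4 stood first at 14.5 ± 5.47, overlapping Slc36a1 at 9.75, which overlapped Slc6a9 at 7.30. Slc36a2 (1.98) and Slc36a4 (0.860) followed without overlap, and Slc1a2 (0.0527) and Slc1a1 (0.0490) were last and overlapped. As a share of the summed CPM per kb of the 7 genes, Slc36a2 made up 41.9% ± 13.8 of control livers and 7.19% ± 4.58 of No-Trp livers (SD, n = 3 mice). Slc6a9 made up 14.2% ± 7.48 and 35.8% ± 3.27. The sum itself was 34.3 ± 2.71 CPM per kb in control livers and 28.0 ± 4.50 in No-Trp livers. In the xenografts Slc36a1 made up 52.6% ± 2.95 on the control and 30.0% ± 11.5 on the No-Trp diet, and Slc1a4 32.1% ± 4.27 and 41.0% ± 6.41. The sum there was 23.6 ± 0.512 CPM per kb on the control and 34.4 ± 8.55 on the No-Trp diet.

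**Figure D4:**
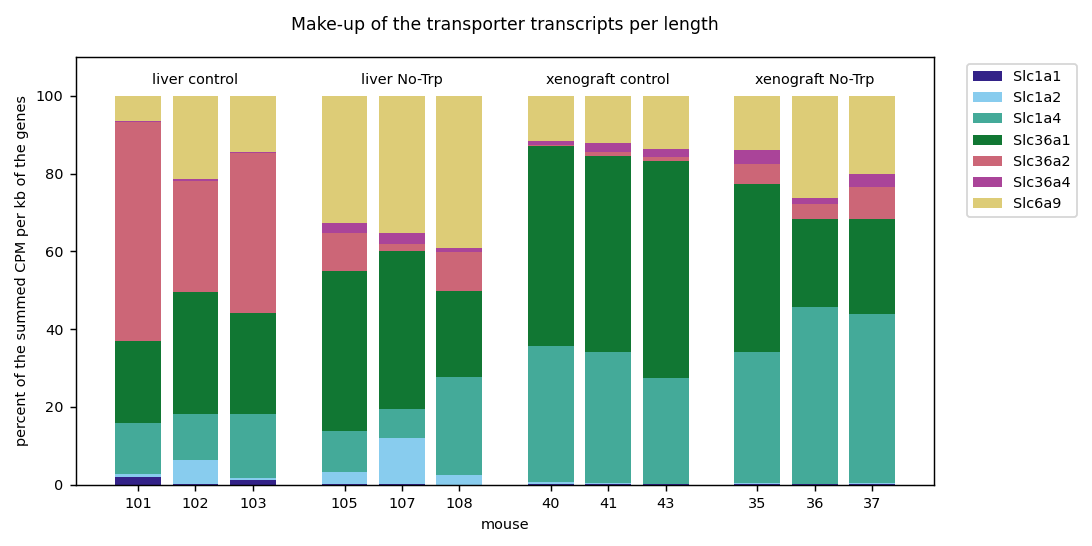
Share of each gene in the summed CPM per kb of the 7 genes (y axis, percent) in each of the 12 libraries (x axis, mouse number). Slc36a2 takes 28.5% to 56.1% of the sum in control livers and 1.90% to 9.85% in No-Trp livers, and Slc36a1 50.4% to 55.9% in control xenografts.

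Of 17 relatives of the SLC1, SLC36 and SLC6 families, 6 were tested in each diet comparison. Over all genes tested, 16.5% were called in the livers, 0.36% in the xenografts and 12.7% for the difference between the models. In the livers Slc6a12 (log2 fold change 2.80, edgeR adjusted p = 0.0199), a betaine and GABA transporter, and Slc6a13 (1.02, edgeR adjusted p = 0.0419), a GABA and taurine transporter, rose, and none fell. Slc1a3 (0.05), the taurine transporter gene Slc6a6 (0.16) and the neutral amino acid transporter gene Slc6a19 (-0.42) did not pass. Slc1a5, which encodes the other neutral exchanger of the SLC1 family and carries glutamine, was at -1.73 (edgeR adjusted p = 0.0591) in the livers and rose in the xenografts (1.74, edgeR adjusted p = 0.0436). Its mean was 101 ± 25.1 and 29.9 ± 19.9 CPM in control and No-Trp livers, and 31.2 ± 8.51 and 105.5 ± 26.4 CPM in control and No-Trp xenografts (SD, n = 3 mice). The responses of Slc1a5 differed between the models by 3.49 (SE 0.67, edgeR adjusted p = 0.0109). Those of the glial glutamate transporter gene Slc1a3 differed by 3.64 (SE 1.09, edgeR adjusted p = 0.0431), and those of Slc6a12 by -3.05 (SE 0.78, edgeR adjusted p = 0.0266). In the xenografts Slc1a3 (3.66, edgeR adjusted p = 0.132), Slc6a6 (0.62), Slc6a12 (-0.31), Slc6a13 (-0.05) and Slc6a17 (0.86) did not pass. Slc1a3, with as few as 2 reads in a control, passed the low-count filter there only through the No-Trp group. Slc1a6, Slc1a7, Slc6a7, Slc6a14, Slc6a15, Slc6a18, Slc6a20a and Slc6a20b were below the filter in both models. Slc36a3 held at most 5 reads in any library and Slc6a5, the other glycine transporter gene, 0 reads in all 12.

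Genes around these transporters were taken from lists. Their counts stand against 16.5% of all genes called in either direction in the livers and 0.36% in the xenografts. Of 19 other amino acid transporter genes tested in the livers, 3 rose and 2 fell, with a median log2 fold change of -0.55. The system N and A transporters Slc38a3 (2.51) and Slc38a4 (2.23) and the cationic transporter Slc7a2 (2.22) rose, and Slc7a1 (-1.66) fell. Of 21 enzymes and carriers of glutamate and glutamine, 8 rose, among them the aminotransferases Gpt (2.59) and Got1 (1.90), the mitochondrial glutamate carrier Slc25a22 (1.60) and the glutathione enzyme Gclc (1.56). Of 20 genes of glycine and serine metabolism 5 rose and 0 fell, led by the glycine methyltransferase Gnmt (2.56) and the serine dehydratase Sds (1.99).

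Of 23 genes of lysosomal amino acid sensing, 4 rose and 2 fell in the livers. The Rag GTPase genes Rragb (-3.14) and Rragd (-2.39) fell, and Lamp2 (1.46) and the lysosomal exporter gene Pqlc2 (1.40) rose. Of 29 ATF4 targets 7 rose, led by the hormone gene Fgf21 (4.14), the lipoprotein receptor gene Vldlr (3.42), Trib3 (2.50) and Atf5 (2.18), and 1 fell, Slc7a1, with a median over the list of -0.06. In the xenografts 0 of 28 ATF4 targets rose and 1, Cebpb (-1.25), fell, while the median was 0.74. None of the transporter, glutamate, glycine and lysosomal lists had a called member there by edgeR, of 18, 20, 20 and 23 tested. With only 0.36% of all genes called in the xenografts, these counts do not set the lists apart from other genes. Of the pericentral liver genes 1 of 12 rose in the livers, the cation transporter Slc22a3 (3.66), and in the xenografts 1 of 11, again Slc22a3 (4.69). Of 11 periportal genes 6 rose in the livers, led by the urea cycle gene Arg1 (2.90), the histidine ammonia-lyase gene Hal (2.68), Sds and Cps1 (1.70), and 0 in the xenografts.

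To find genes with a like pattern, the log2 CPM of each member, with the mean of its model subtracted, was correlated with that of 12400 genes over the 12 libraries. The values are a description, since the points share libraries, depth and diet. Slc1a4 was most like Slc3a2 (Pearson r = 0.956, n = 12), the partner chain of several exchangers, and next Chac1 (0.941), which degrades glutathione, and Cdk5rap1 (0.919). Slc6a9 was most like Fadd (0.945), the alanyl-tRNA synthetase gene Aars (0.934) and Nbea (0.912). Slc36a4 was most like Cd300lg (0.976), Tns1 (0.974) and Cul9 (0.953), and Slc36a2 most like Recql (0.948), Bcap29 (0.940) and Ipo4 (0.938). For Slc36a1 the nearest were Cadm4 (0.899), Rtf1 (0.892) and Sall2 (0.888), for Slc1a1 Purb (0.953), Mapkapk3 (0.952) and Cercam (0.944), and for Slc1a2 Pyroxd2 (0.910), 2310001H17Rik (0.900) and Zfp467 (0.898). Between members, Slc1a4 and Slc36a1 were the most opposed pair (r = -0.822) and Slc1a4 and Slc36a2 the most alike (r = 0.671).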

How the data were processed

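RNA-seq read counts of 12 libraries were used, with 3 mice in each of 4 groups. The deposited values are raw counts of reads on genes. Before that, the authors used Trim Galore to trim, STAR 2.7.2b to align to mm10 and HTSeq to count, and applied no normalization to the counts. Reads left out by that counting (24.7% to 39.4% per library) entered neither library sizes nor tests. The strand setting, which bears on overlapping genes, is not given in the sources used here. Replicate libraries differed by 34.6 to 274 times the variance of counting (chi-square per gene). Groups follow the labels.

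The diets were compared within each model, and the models in a fit over all 12 libraries, with edgeR 4.0.16 in R 4.3.3 (two-sided quasi-likelihood tests with robust glmQLFit after filterByExpr and TMM, adjusted by Benjamini-Hochberg across genes). DESeq2 1.42.0, other scalings and filters, resubmission as a covariate and leaving out each library were alternatives. The 7 members were all named, whatever their values, as were the 17 relatives, and, of each list, up to 4 called genes with the largest change in the diet comparison. Trp53 and the genes overlapping members were named after their values were seen. A further gene of the glutamate and glutamine list is not reported here. Correlations used log2 CPM with a prior count of 2 among genes with a mean of at least 1 CPM in each model. Exon lengths and positions are from GENCODE M21 on GRCm38. The members and lists were chosen with earlier results of these data known. In simulated counts, changes of 2 on the log2 scale were called for 90.0% of 200 genes among 14122 in the liver design. The rate was 96.5% among 14704 in the xenograft design and 51.0% among 15472 for the difference between the models. Every simulated gene was given the spread fitted over all genes. The simulation therefore cannot tell how often real genes with a wider spread were missed.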

Additional observations from a re-analysis of the deposited data

Results flagged for a closer look

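The response to the No-Trp diet differed between the models for 2 of the 7 transporter genes, by the interaction term of the fit over all 12 libraries. By the same term 12.7% of 15472 genes were called. For Slc36a2 the log2 difference (xenografts minus livers) was 6.33 (edgeR adjusted p = 0.00593). On the No-Trp diet the gene was lower in 3 of 3 livers and higher in 3 of 3 xenografts than in every control. The diets were apart in this way in 48.7% of all genes tested in the livers and 22.4% in the xenografts. Within the xenografts Slc36a2 passed the low-count filter only through the No-Trp group and was not called (edgeR adjusted p = 0.0506). For Slc1a1 the log2 difference was 5.98 (edgeR adjusted p = 0.0147). Slc1a1 passed the low-count filter in the livers only through the controls and was below the filter in the xenografts (4 to 14 reads per library). Its value therefore rests on the liver change. Groups of 3 mice are too small for a check of single values that stand apart.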

How the results depend on the processing

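Of 580 values of single genes under the alternatives, 531 kept their direction and their side of the threshold, 24 changed sign, 17 newly passed and 8 no longer passed. The count of members called was 3 in the livers, 0 to 5 without single libraries. In the xenografts it was 0, and 2 with DESeq2, 1 with RLE factors, 1 with library totals and 1 without a low-count filter. With at least 10 counts in every library, which left Slc1a1, Slc1a2 and Slc36a2 untested over the 12 libraries, it was 0 for the difference between the models, 1 for xenografts against livers on the control and 1 on the No-Trp diet, and with library totals it was 4 on the No-Trp diet. Over all genes, calls in the livers were 2337, and 3570 without a fold threshold and 8 to 3207 without single libraries. In the xenografts they were 53, and 380 with DESeq2, 82 with RLE factors, 118 without a filter and 15 with at least 10 counts. They were 23 there in 1 fit over all libraries and 9 to 78 without single libraries. For the difference between the models they were 1966, and 916 to 2571 without single libraries.

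The changes of sign were in values that did not pass in either setting. Library totals, which moved the median of all genes in the livers to -0.30 and for the No-Trp groups to 0.68, gave -0.20 for Slc36a1 in the livers and 0.36 for Slc36a2 and 0.0216 for Slc6a9 between the models on the No-Trp diet. With resubmission as a covariate, Slc1a2 was at -0.84 in the xenografts, where only control xenograft 40 then stood against the No-Trp group. On the No-Trp diet, that covariate gave -0.0242 for Slc36a1 and 0.39 for Slc36a2 between the models. Slc36a1 there was at -0.0782 with DESeq2, -0.0792 with RLE factors and -0.0388 with only the 6 libraries compared. Without single libraries, log2 fold changes ranged from -1.02 to 0.24 for Slc1a4 and from -0.00068 to 0.25 for Slc36a1 in the livers, and from -0.34 to 0.89 for Slc1a2 in the xenografts. They ranged from -2.79 to 0.0685 for Slc1a2 and from -0.26 to 0.53 for Slc6a9 in the difference between the models, and from -0.11 to 0.15 for Slc36a1 and -0.60 to 0.37 for Slc36a2 between the models on the No-Trp diet. The cause of these changes was not tested. No paired analysis was possible because the groups share no mouse numbers. With 3 mice per group, an exact permutation test of 1 gene cannot go below p = 0.10.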
